A study of Mus musculus with 8 samples.

Results

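Ribosome footprints of attached stroma and of suspension cells were compared in cultured bone marrow from wild-type mice, with 2 libraries of each fraction. All 4 libraries came from wild-type C57BL/6 animals at postnatal day 8. The other 4 libraries of the series came from Dnmt2-/- animals, which lack an RNA cytosine methyltransferase of tRNAs, and enter here through the TMM scaling and the estimate of spread, which all 8 libraries share, and as values given beside those of wild type. Mononuclear marrow cells were grown in IMDM with 20% FBS, thrombopoietin at 5 ng/ml, and FLT-3L and SCF at 10 ng/ml each. The suspension cells, which are haematopoietic per the labels, were harvested apart from the cells attached to the dish. Both fractions therefore saw the same cytokines. Ribosomes were held with cycloheximide at 100 µg/ml for 5 minutes, RNase I cleaved the RNA that they did not cover, and protected fragments of 28 to 31 nucleotides were sequenced. Whether the replicates of a fraction came from separate animals or cultures is not given in the sources used here, so a p-value here reflects the spread of these libraries alone, and that spread may be technical.

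The features compared were the UCSC known-gene IDs with 10 or more counts in at least 2 of the 4 wild-type libraries. This rule kept 9896 of 20154 IDs, and these held 99.7% of the counts of every wild-type library. Among the kept IDs, 8438 reached 10 counts in all 4 libraries, 790 in 3 and 668 in 2. Just inside the rule, the 668 IDs summed to 22 to 231 counts over the 4 libraries, with a median of 45. Just outside it were 592 IDs with 10 or more counts in 1 library, which summed to 11 to 104 counts with a median of 27. A further 9666 IDs reached 10 counts in no library, and 6588 of all IDs had no wild-type count.

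A ribosome on an mRNA shields a short stretch of it from nuclease, so the number of shielded fragments that map to a gene rises with how much of its mRNA is present and how many ribosomes each copy carries. Footprint counts thus describe where a cell population spends its elongating ribosomes. Marrow stroma is a mixed adherent population that can hold fibroblast-like and mesenchymal cells, endothelial cells and adherent macrophages, and is known for extracellular matrix and for factors that keep haematopoietic cells. Haematopoietic cells grown with these cytokines are progenitors and their maturing offspring. The IDs were not paired with gene names here: 0 of 20154 were found in the reference tables. The labelled cell types were therefore not checked against their defining markers, the lists of stromal, macrophage, granulocyte, erythroid and other markers were not read, and no sequence is shown. Counts are not corrected for transcript length, so an ID's share of a library's footprints reflects its length as well as its level, and the ranks and sizes below order IDs by their footprints and not by level per length. In bulk libraries such as these, fewer cells of a type and less RNA per cell cannot be told apart.

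The wild-type suspension libraries held 4025780 and 2742492 counts (replicates 1 and 2), and the wild-type stroma libraries 2151743 and 3962230. The number of IDs with at least 1 count was 12326 and 12239 in suspension and 11874 and 12369 in stroma. Read down to the 2151743 counts of the shallowest library, the expected number was 11833 and 12045 in suspension and 11874 and 11862 in stroma. At equal depth the fractions overlapped, so neither was seen to use more IDs than the other.

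Fewer of the most abundant IDs were needed to hold 25%, 50% or 90% of the footprints in stroma than in suspension libraries. The IDs needed to hold 50% of the footprints numbered 304 and 254 in the stroma libraries and 406 and 387 in the suspension libraries. Their means were 279 ± 35 and 396.5 ± 13.4 (SD, n = 2 each), and the fractions did not overlap. For 25% of the footprints the numbers were 35 and 27 in stroma against 68 and 63 in suspension. For 90% they were 3354 and 3294 against 3650 and 3745. Both stroma libraries needed fewer IDs at each of these levels. With 2 libraries against 2, the exact two-sided permutation test gave p = 0.333 for the 50% level, the smallest value it can give.

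The single most abundant ID held a like share in both fractions. It took 3.45% and 2.998% of the footprints in stroma 1 and 2, and 3.38% and 3.25% in suspension 1 and 2, and there the fractions overlapped. The 10 most abundant IDs held 14.4% and 15.9% of the footprints in stroma against 10.1% and 11.2% in suspension. The 100 most abundant held 36.1% and 38.7% against 29.3% and 30.2%. The 1000 most abundant held 70.0% and 71.0% against 66.5% and 66.5%. In these 3 sets stroma lay above suspension in both libraries, by 4.48 percentage points of the mean for 10 IDs, 7.61 points for 100 and 3.98 points for 1000. The knockout libraries, from which none of these values was taken, had the same order. The IDs for 50% of the footprints numbered 292 and 247 in knockout stroma and 392 and 373 in knockout suspension. They are not a fully separate check. Wild-type and knockout suspension libraries of like number were closer to each other than the wild-type suspension replicates were, as given below.

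**Figure D1:**
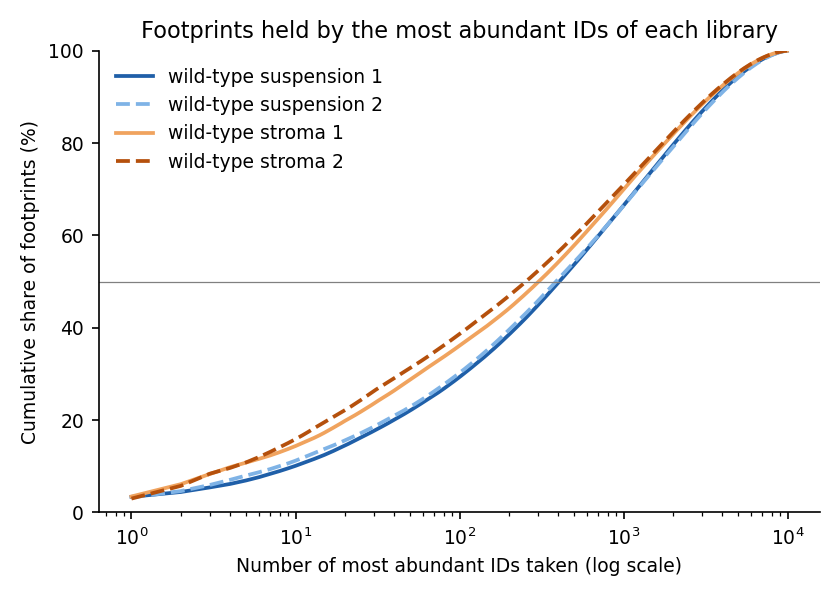
Cumulative share of a library's footprints (%) against the number of most abundant IDs taken (log scale), for 2 suspension and 2 stroma libraries of wild type, 1 line each. Both stroma lines run above both suspension lines between 10 and 1000 IDs and reach 50% of the footprints at 304 and 254 IDs, against 406 and 387 in suspension.

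A sizeable share of the footprints lay on other IDs in stroma than in suspension. This share was taken as the sum of all gains in an ID's share of footprints between 2 libraries, so that 0% means the same spread over IDs and 100% no ID in common. It was 24.2% between stroma 1 and suspension 1 and 30.4% between stroma 2 and suspension 2, with a mean of 27.3% ± 4.4 (SD, n = 2). Replicates of 1 fraction differed by less, with 14.4% between the suspension libraries and 12.7% between the stroma libraries. Stroma and suspension libraries of unlike replicate number differed by 25.98% and 32.8%. Every pair across the fractions thus exceeded both replicate pairs. Both pairs with stroma 2 lay above both pairs with stroma 1.

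The gain of stroma was gathered on fewer IDs than its loss. Between stroma 1 and suspension 1, 29 IDs made up 50% of the footprints gained and 183 IDs made up 50% of those lost. Between stroma 2 and suspension 2 these numbers were 28 and 136. For the pairs of unlike number they were 46 and 118, and 27 and 174. In knockout libraries, taken over all 4 pairs of a stroma and a suspension library, 26 to 49 IDs made up 50% of the gain and 120 to 159 IDs made up 50% of the loss. Unequal sides were also seen without a fraction difference: 45 IDs made up 50% of the gain of stroma 2 over stroma 1 and 144 IDs 50% of its loss, and the numbers were 110 and 177 for suspension 2 over suspension 1. For knockout over wild-type suspension they were 66 and 275 for number 1, and 149 and 348 for number 2. The 10 IDs with the largest gain of stroma over suspension carried 8.42 percentage points of the footprints in stroma 1 and 10.4 points in stroma 2. The 10 with the largest loss carried 3.76 and 5.26 points.

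Of the IDs behind 50% of the gain, 26 were common to both replicate numbers. Together they held 4.13% and 5.11% of the footprints in suspension 1 and 2 and 15.4% and 20.0% in stroma 1 and 2. These shares describe the choice, since the IDs were picked on these libraries. The knockout libraries had no part in this choice, but they are not a fully separate check: wild-type and knockout suspension differed by 5.52% of footprints for number 1 and 5.54% for number 2, less than the 14.4% between the wild-type suspension replicates. The 26 IDs held 3.65% and 5.58% in knockout suspension and 15.9% and 20.5% in knockout stroma. All 26 were higher in both knockout stroma libraries than in both knockout suspension libraries, a pattern shown by 26.7% of all IDs tested. In wild type 23 of them were called higher, where 8.48% of all IDs were, but the same libraries had picked them. Their median fitted log2 difference was 2.25 in wild type and 2.35 in the knockout. Of the IDs behind 50% of the loss, 108 were common to both numbers. In the wild-type libraries that picked them, 71 were called lower, where 7.57% of all IDs were. In the same libraries, 98 were lower in both stroma than in both suspension libraries, against 30.5% of all IDs tested. In the knockout, 99 of the 108 were lower in both knockout stroma libraries than in both knockout suspension libraries, against 29.7% of all IDs tested. They held 18.0% and 18.7% of the footprints in knockout suspension and 7.08% and 5.42% in knockout stroma.

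The test across all IDs found differences in both directions. In stroma, 839 IDs were higher and 749 lower than in suspension, together 1588, or 16.0% of the 9896 tested, at an adjusted p under 0.05 (edgeR's quasi-likelihood test, Benjamini-Hochberg adjustment). Higher IDs made up 8.48% and lower IDs 7.57% of those tested. Levels of the fractions did not overlap for 5716 IDs, or 57.8% of those tested. With 2 libraries against 2, many IDs would not overlap even without a fraction difference, so this is not a count of differing IDs. The median fitted log2 difference was 1.62 among the higher IDs and -1.72 among the lower, and -0.06 over all IDs tested. More than 4-fold differences were fitted for 297 of the higher and 267 of the lower IDs. The call rests on scaling by TMM, which sets most IDs near 0: with raw library sizes the median over all IDs was -0.25, and 669 IDs were called higher and 1105 lower. Higher IDs thus made up 52.8% of the calls with TMM and 37.7% with raw sizes.

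Fits without 1 wild-type library keep 1 library in a fraction, so fewer calls there do not by themselves show that library's influence. The number of calls was lower in each of these fits. It was 345 without stroma 2, 784 without suspension 2, 855 without suspension 1 and 1021 without stroma 1. When replicate number was added to the model of the 4 wild-type libraries as a block, it was 3417, and all 1588 were among them. That model leaves little variation in 4 libraries from which to estimate spread, so its count is not on a par with the 1588. The 95% interval of the fitted difference lay within 2-fold in both directions for 3019 IDs (30.5% of those tested). For the other 69.5% it reached a difference of 2-fold or more.

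The ID with the largest rise in CPM, uc012elo.1, had 3445 and 4560 CPM (counts scaled to a common library size of 1000000 after TMM) in suspension 1 and 2 and 27558 and 32743 CPM in stroma 1 and 2. Every stroma value lay far above every suspension value. Its raw counts were 14800 and 13511 in suspension and 57265 and 118449 in stroma. It ranked 20th and 14th among the IDs of the suspension libraries, 2nd in stroma 1 and 1st in stroma 2. Its log2 difference was 2.91 ± 0.43 (SE), a 7.53-fold rise (edgeR, adjusted p = 0.00398). In the knockout it had 2340 and 5268 CPM in suspension and 28698 and 32955 CPM in stroma.

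The next largest rise was that of uc007uhh.1, from 3837 and 4711 CPM in suspension to 22677 and 28732 CPM in stroma. The fractions did not overlap, and the ID stood 18th and 13th in suspension and 3rd in both stroma libraries. Its log2 difference was 2.59 ± 0.36 (SE), a 6.01-fold rise (edgeR, adjusted p = 0.00346). Knockout stroma had 25004 and 28867 CPM of it against 3153 and 5431 CPM in knockout suspension. These 2 IDs alone held 4.86% of the footprints in stroma 1 and 5.63% in stroma 2, against 0.779% and 1.005% in suspension 1 and 2.

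The largest fall was smaller in CPM than either rise. The ID uc008qdd.1 went from 9815 and 10392 CPM in suspension to 2677 and 2183 CPM in stroma, with no overlap. It ranked 2nd and 4th in suspension and 39th and 50th in stroma. Its log2 difference was -2.06 ± 0.29 (SE), a 4.16-fold fall (edgeR, adjusted p = 0.00346). Knockout suspension had 14759 and 10763 CPM of it, and knockout stroma 2526 and 2532 CPM.

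The second largest fall, that of uc011ycc.1, varied more between replicates than the other 3 named IDs. It had 3997 CPM in suspension 1 and 12687 CPM in suspension 2, and 968 and 1453 CPM in stroma 1 and 2. The fractions did not overlap, but the suspension libraries stood 3.17-fold apart. Its log2 difference was -2.78 ± 0.61 (SE), and edgeR's adjusted p was 0.0167. Without suspension 2 the difference was -1.66 with an adjusted p of 0.0993, and the call was also lost without stroma 1 (0.0926) and without stroma 2 (0.0872). Over all alternatives run, its log2 difference lay between -3.40 and -1.66. The knockout suspension libraries also stood apart, at 3969 CPM for number 1 and 10218 CPM for number 2, against 1225 and 1066 CPM in knockout stroma.

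These 4 IDs were among 21 that belonged to the 10 most abundant of at least 1 wild-type library. Of the 21, 7 were called higher in stroma and 4 lower, and 10 were not called, where 8.48% and 7.57% of all IDs tested were called higher and lower. An ID could enter this set through the fraction in which it is high alone, so these counts describe the set and nothing is read from the difference to all IDs. The most abundant of them on average was not called: it had 31579 and 29985 CPM in suspension and 35673 and 30101 CPM in stroma, a log2 difference of 0.10 ± 0.30 (SE), and edgeR's adjusted p was 0.88. It ranked 1st in 3 libraries and 2nd in stroma 2. Another ID that was not called stood 3rd in both suspension libraries and 4th in both stroma libraries, with 9250, 12159, 15410 and 13805 CPM in suspension 1 and 2 and stroma 1 and 2. Of the 21, the ID with the largest fitted rise had 536 and 686 CPM in suspension and 5510 and 9863 CPM in stroma, and moved from ranks 289 and 202 to ranks 17 and 9.

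**Figure D2:**
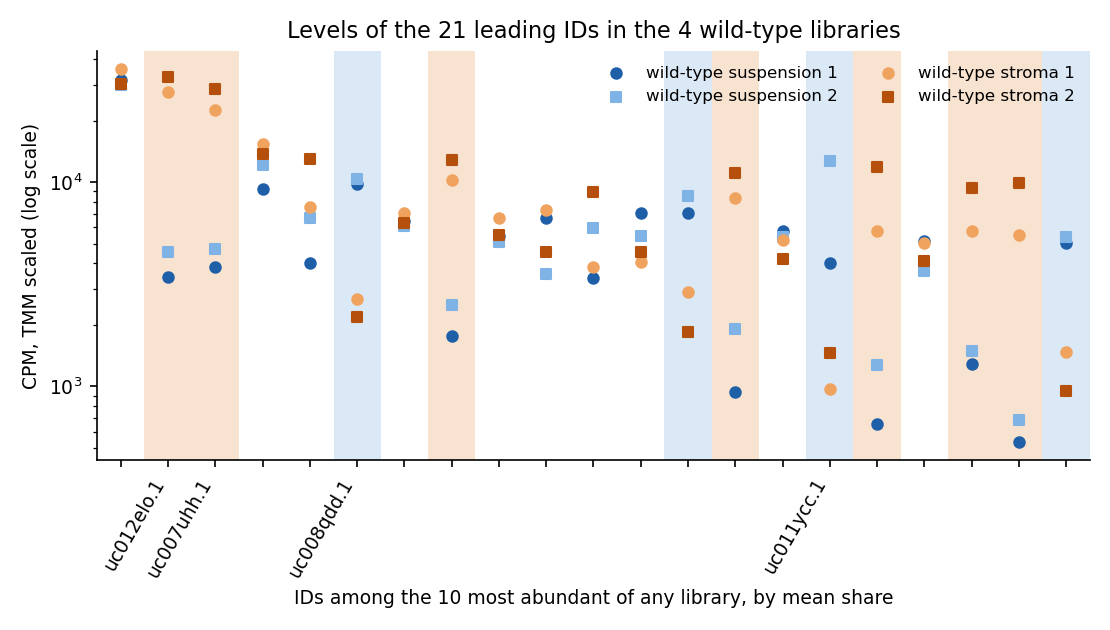
Levels (CPM, TMM scaled, log scale) of the 21 IDs that were among the 10 most abundant of at least 1 wild-type library, 1 point per library, ordered by mean share. Orange bands mark the 7 IDs called higher in stroma, where both stroma points lie above both suspension points, and blue bands the 4 called lower; uc012elo.1 and uc007uhh.1 show the largest rises in CPM.

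The lists of leading IDs changed more between fractions than between replicates. Of the 100 most abundant IDs, 72 were shared by the suspension libraries and 87 by the stroma libraries. Stroma and suspension shared 67 for number 1 and 57 for number 2, and 57 and 59 for unlike numbers. All 4 lists had 47 IDs in common. At 1000 IDs the replicates shared 864 in suspension and 894 in stroma, and the fractions 806 and 738 for like numbers. There were 25 IDs in the top 100 of both stroma libraries and of no suspension library, and their mean rank in suspension lay between 110 and 1295 with a median of 245. The reverse held for 18 IDs, whose mean rank in stroma lay between 114 and 2498 with a median of 377. A lower rank in the other fraction is set by this choice.

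The calls were also described by abundance. The IDs were ranked by their mean share over the 4 wild-type libraries, which weights the fractions equally. A large rise in 1 fraction lifts an ID in this ranking, so the classes are not independent of the calls and the counts are a description. Among the first 100, 27 were called higher and 10 lower in stroma, together 37%, where 16.0% of all IDs tested were called. For ranks 101 to 500 the numbers were 61 higher and 60 lower (30.3% together), and for ranks 501 to 1000 they were 82 and 38 (24%). The last class, ranks 7001 to 9896, had 143 higher and 183 lower (11.3%). The typical size of the fitted difference did not fall in the same way. Its median absolute log2 value was 0.65 in the first class, 0.40 in ranks 1001 to 2000 and 0.57 in the last class. The median SE was 0.32, 0.26 and 0.47 in these classes, so the last class could be called less often at a given size. A larger SE also widens fitted differences, so the 0.57 is not read as the size of the underlying differences.

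The 100 IDs of the first class took 35.7% and 37.4% of the footprints in stroma 1 and 2 and 27.9% and 28.3% in suspension 1 and 2. In ranks 101 to 500 the order was the opposite, with 21.0% and 20.3% in stroma and 24.3% and 24.6% in suspension. For ranks 501 to 1000 the fractions overlapped, with 12.7% and 12.03% in stroma and 13.2% and 12.4% in suspension. Each class below rank 1000 held a smaller share in both stroma libraries than in both suspension libraries, such as 6.22% and 6.20% against 7.02% and 7.22% in ranks 4001 to 7000. The lead of higher over lower calls in the first class was present with raw library sizes (25 higher, 12 lower) and without any 1 wild-type library (13 to 25 higher, 2 to 9 lower). With raw sizes the balance in ranks 101 to 500 turned to 55 higher and 75 lower, and the last class had 112 higher and 264 lower.

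**Figure D3:**
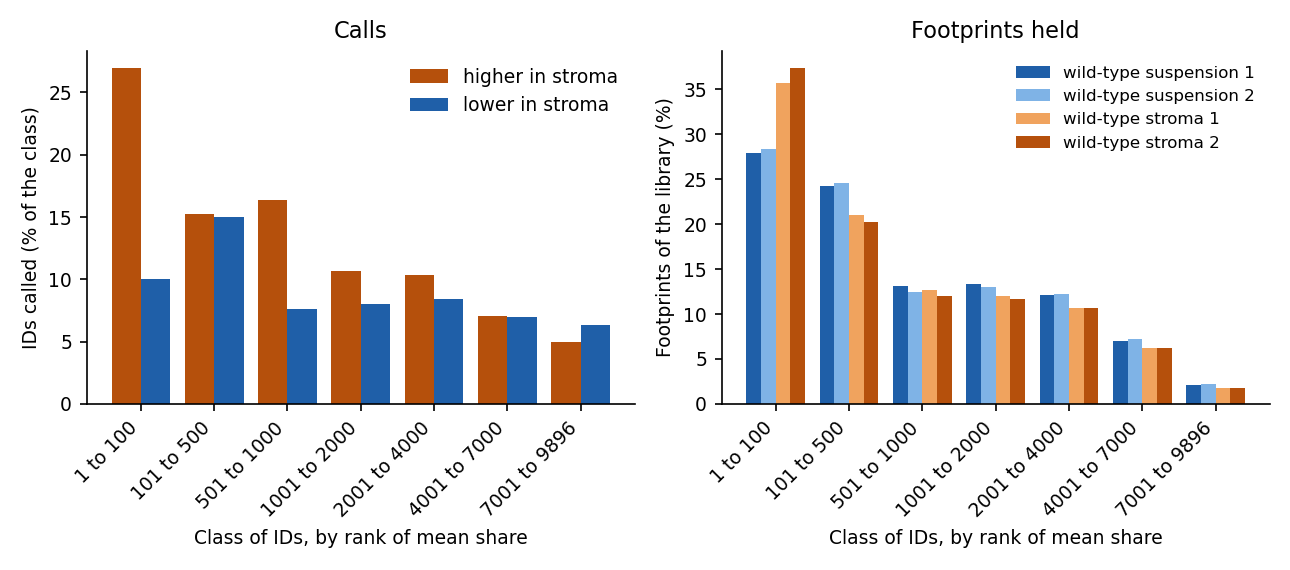
Left, IDs called higher or lower in stroma (% of the class) and right, share of each library's footprints (%), for 7 classes of IDs by rank of mean share over the 4 wild-type libraries. In the first 100 IDs 27% were called higher and 10% lower, and the stroma libraries held 35.7% and 37.4% of their footprints there, against 27.9% and 28.3% in suspension.

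Taken within each replicate number, the pairs of libraries showed differences of like direction. With a pseudocount of 0.5 CPM, more than 2-fold differences were shown by 954 higher and 1079 lower IDs for number 1, and by 1253 higher and 1267 lower IDs for number 2. In both numbers, 755 IDs were more than 2-fold higher (7.63% of those tested) and 724 more than 2-fold lower (7.32%), and 7 went in opposite directions. The signs were alike for 7488 of the 9896 IDs. The replicates of a fraction differed by more than 2-fold for 868 IDs in suspension and 796 in stroma. The standard deviation of the log2 ratio over IDs was 0.91 for number 1 and 1.08 for number 2 across the fractions, against 0.61 between suspension and 0.58 between stroma replicates.

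Large falls were more frequent in number 2. More than 4-fold lower in stroma were 169 IDs for number 1 and 436 for number 2, while more than 4-fold higher were 297 and 329. The 136 IDs that were more than 8-fold lower in stroma 2 than in suspension 2 had a median log2 ratio of -3.45 there by choice, and of -1.92 in number 1, where 69 of them differed by less than 4-fold. They held 3.69% of the footprints in suspension 2 and 1.61% in suspension 1, and 0.306% and 0.328% in stroma 2 and 1. A high share in suspension 2 is favoured by the choice. Knockout suspension held 3.58% for number 2 and 2.15% for number 1. The median level of the 136 IDs in stroma 2 was 2.21 CPM. The 44 IDs chosen in the same way in number 1 had a median log2 ratio of -3.54 there and of -3.19 in number 2, where 2 differed by less than 4-fold. Their median level in stroma 1 was 0.481 CPM, near the pseudocount of 0.5 CPM, so their ratios in number 1 depend on that pseudocount. They held 0.340% and 0.879% of the footprints in suspension 1 and 2, and 0.0110% and 0.0642% in stroma 1 and 2. In contrast, the 84 IDs more than 8-fold higher in stroma 2 had a median log2 ratio of 3.72 there by choice and of 2.99 in number 1, where 5 differed by less than 4-fold. They held 4.62% of the footprints in stroma 2 and 3.16% in stroma 1, and 0.478% and 0.405% in suspension 2 and 1.

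**Figure D4:**
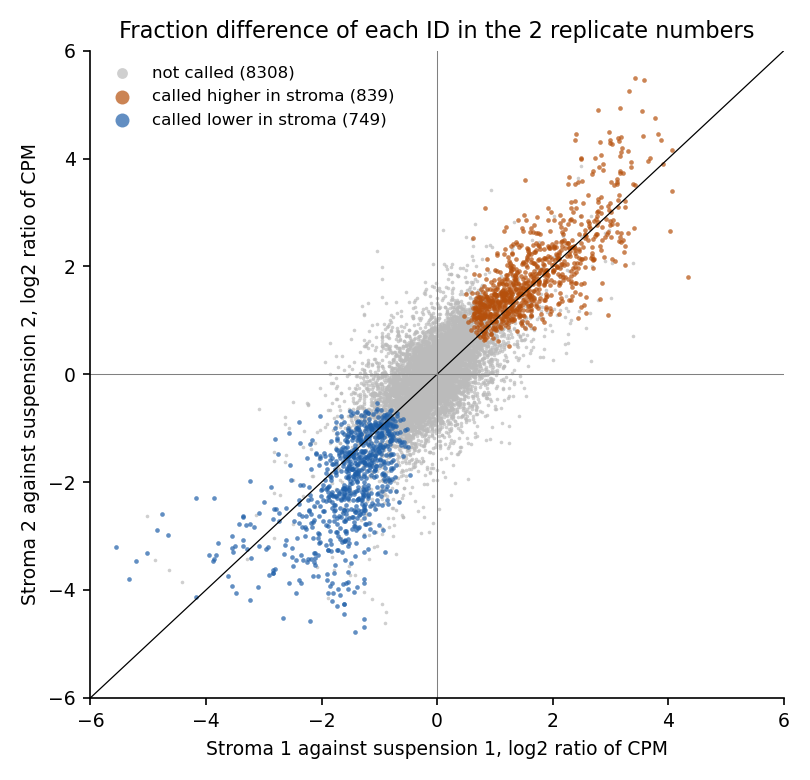
Log2 ratio of CPM (with a pseudocount of 0.5) of stroma 2 against suspension 2, plotted against that of stroma 1 against suspension 1, 1 point per ID, with the line of equal ratios. The 839 IDs called higher lie along the line, while many of the 749 called lower fall below it, where the difference was larger in number 2; more than 4-fold falls numbered 436 there against 169 in number 1.

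The stroma libraries also differed in how far they stood from suspension. Of the 839 IDs called higher in stroma, 638 (76.0%) had a higher level in stroma 2 than in stroma 1, against 52.7% of all IDs tested. Of the 749 called lower, 262 (34.98%) did. The suspension libraries differed as well. Of the same 749 IDs, 487 (65.0%) were higher in suspension 2 than in suspension 1, against 49.5% of all IDs tested. Of the 839 called higher, 473 (56.4%) were. Summed, the higher IDs held 26.5% of the footprints in stroma 1 and 31.9% in stroma 2, and 8.25% and 8.96% in suspension 1 and 2. The lower IDs held 4.67% in stroma 1 and 3.57% in stroma 2, and 15.0% and 18.4% in suspension 1 and 2. Since these very libraries selected the IDs, the shares are a description of size. In the knockout, whose stroma columns carry no replicate number, 657 (78.3%) of the higher IDs were higher in stroma library b than in library a, against 53.8% of all IDs tested. The part of cell composition or of library preparation in these differences was not tested.

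No ID was abundant in one fraction and without counts in the other. Counts in both stroma libraries and none in either suspension library were found for 147 IDs, with at most 20 counts summed over the libraries and a median of 3. The reverse was found for 227 IDs, with at most 34 counts and a median of 3. None of the 147 and 7 of the 227 had enough counts for the test. A count in all 4 libraries was found for 10972 IDs, of which 9834 were tested.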

How the data were processed

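The authors deposited 1 table of raw whole-number counts of footprints per UCSC known-gene ID, with a column for each of 8 libraries, per the file headers. Per the submitters' processing notes, alignment used Bowtie on build mm9. How reads were counted, against which transcripts, on which strand and with what rule for multiple matches is not given in the sources used here, so IDs of near-identical or overlapping sequence may share or lose reads. No column lacked a sample or group, but both knockout stroma columns carry 1 header and are called a and b.

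The members and lists were chosen with earlier results of these data known. IDs with 10 or more counts in at least 2 wild-type libraries were tested by edgeR 4.0.16 in R 4.3.3 (TMM, quasi-likelihood test, 4 group means, all 8 libraries sharing 1 estimate of spread, no block), with Benjamini-Hochberg adjustment over all 9896. SE and 95% intervals derive from the F statistic and are approximate. Shares of footprints use unscaled counts on the tested IDs, and expected numbers of IDs at equal depth are exact hypergeometric means. Totals of 2151743 to 4025780 counts in the wild-type libraries set the precision. Named IDs followed a rule: called, more than 2-fold changed in both replicate numbers, and the 2 largest rises and 2 largest falls in mean CPM. Alternatives were other scalings and filters, DESeq2 1.42.0, limma 3.58.1 with voom, fewer libraries and a replicate block. The scripts were tested on simulated data.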

Additional observations from a re-analysis of the deposited data

How the results depend on the processing

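The number of IDs called between wild-type stroma and suspension was 1588. It lay between 345 and 1021 when 1 wild-type library was left out, where the single library of a fraction is assumed to vary like the other groups, and these fits shared 340 to 956 calls with the 1588. With the replicate block it was 3417 on the 4 wild-type libraries and 3403 on the 6 numbered ones, and all 1588 were included in each. Both block models estimate spread from fewer libraries than the main fit, so these counts are not on a par with the 1588. The same 4 wild-type libraries without the block gave 1602, also from fewer libraries than the main fit. The block model of the 6 numbered libraries leaves as many degrees of freedom for the spread as that fit without the block. The replicate differences of the 2 fractions correlated across IDs at 0.42, which is a hint from the data alone: there are 2 numbers, and what a number stands for is not stated in the labels. Without a low-count filter 2367 were called, with filterByExpr 1556, with DESeq2 size factors 1582, with raw library sizes 1774, with the DESeq2 Wald test 1450 and with limma and voom 1618. The log2 differences of uc012elo.1, uc007uhh.1 and uc008qdd.1 kept their direction and call under every alternative run. Without the most abundant ID of each library, the 100 leading IDs held 35.4% of the footprints in stroma and 27.5% in suspension (37.4% and 29.8% with it). Then 311 IDs held 50% of the footprints in stroma and 436 in suspension (279 and 396.5 with it). These shifts follow from removing that ID. The share placed on other IDs was 27.3% over all IDs of the table and 27.3% over the 2933 IDs with 100 or more counts in each library. Pairs of unlike number, added after the data were seen, gave 29.4%. Depth limits the call of IDs with few counts.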
